A study of Mus musculus with 12 samples.

Results

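The 10 genes of cardiac calcium cycling described here were chosen by name as the main parts of the machinery that releases calcium in each heartbeat and stores it again. They are Atp2a2, Pln, Sln, Ryr2, Casq2, Slc8a1, Cacna1c, Jph2, Camk2d and Hrc, 10 of the 56350 gene IDs in the table, and each was found under 1 ID. Polyadenylated RNA from left ventricular apex tissue of mice was sequenced 8 weeks after surgery, in 4 groups of 3 libraries. The groups were lincRNA-p21 knockout mice after transverse aortic constriction (TAC), control mice after TAC, knockout mice after sham surgery and control mice after sham surgery. TAC narrows the aorta and loads the left ventricle with pressure. The knockout is global, so it is not limited to heart cells, and the controls are littermates that the labels give as heterozygous, so that every group carried at least one mutant allele and no wild-type group was used here. The labels give neither the age nor the sex of the mice and do not say that each library came from its own animal, so p-values measure the spread between these libraries.

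At each beat, calcium enters the heart muscle cell through the L-type channel and opens the ryanodine receptor, which lets much more calcium out of the sarcoplasmic reticulum and so starts contraction. Relaxation follows when the pump SERCA2a returns calcium to the reticulum and the sodium-calcium exchanger carries the rest out of the cell. Small membrane proteins set the speed of the pump: phospholamban inhibits it in the ventricle, and sarcolipin, a shorter relative, is the inhibitor typical of atrial muscle in mouse.

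The 2 inhibitors are among the shortest proteins of the heart, and their coding sequences are shown because the ratio results below concern them. Both are read from the forward strand of GRCm38 with GENCODE M21 models and are given 5′ to 3′ without the stop codon. That of Sln, at chr9:53853473-53853565, has 93 bases and 31 codons, with codons 27 to 31 in capitals, the tail of the protein that lies in the lumen of the reticulum. That of Pln, at chr10:53343864-53344019, has 156 bases and 52 codons, with codons 16 and 17 in capitals, the serine phosphorylated by protein kinase A and the threonine phosphorylated by calmodulin-dependent kinase II.
Sln: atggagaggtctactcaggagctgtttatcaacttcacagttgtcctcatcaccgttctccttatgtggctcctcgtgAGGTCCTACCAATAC
Pln: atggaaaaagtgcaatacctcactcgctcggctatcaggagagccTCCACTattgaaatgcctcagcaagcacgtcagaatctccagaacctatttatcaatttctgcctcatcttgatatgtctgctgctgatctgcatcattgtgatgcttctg

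Values are normalised read counts, that is reads per gene divided by 1 size factor per library, and are listed by replicate number. Every change is a difference between group means of log2(value + 1), given with its SE, and comes out too small for genes with few reads. A gene was called when its Benjamini-Hochberg adjusted p in limma-trend was under 0.05 over the 13916 genes tested. The libraries held 10323605 to 13238934 reads. Reads of Trp53cor1, the lincRNA-p21 gene, numbered 0 in the 6 knockout libraries, against 11 in the 6 control libraries, of which 4 had any. All 10 ventricular cardiomyocyte markers were detected in every group, with summed values of 1002345 to 1291310, while the 10 atrial markers summed to 2046 to 7206. Control sham replicate 3 stood apart on the second principal component (score -46.8, 14.4% of the variance), with the lowest mitochondrial share of reads, 12.5%. That share was at least 19.1% in knockout TAC hearts and 15.5% to 17.1% in control TAC hearts, and its part in the results was not tested. It was also the lowest of the 12 libraries for 6 of the 10 genes (Atp2a2, Ryr2, Casq2, Slc8a1, Jph2 and Camk2d), and changes in controls after TAC rest on it in part.

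After TAC, control hearts had higher Sln, Ryr2, Slc8a1, Cacna1c, Casq2 and Camk2d and lower Hrc than sham controls, which made 7 of the 10 genes called, against 21.6% of all genes tested. In knockout hearts none of the 10 was called between TAC and sham, against 0.00719% of all genes. Compared directly after TAC, knockout hearts had lower Sln, Ryr2 and Cacna1c and higher Pln and Hrc than control hearts, 5 of 10 called against 8.23% of all genes (4.1% higher and 4.13% lower). After sham surgery no gene of the 10 was called between knockout and control, against 0.0% of all genes. The difference between the TAC effects of the 2 genotypes was called for none of the 10, against 0.309% of all genes (0.0144% higher and 0.295% lower). Its lowest adjusted p was 0.0603, so a smaller TAC effect in knockouts is not shown for any of them by that test. Without Sln, which passed the filter on low values through the control TAC libraries alone, the counts were 4 of 9 between the genotypes after TAC and 6 of 9 in controls after TAC. Both comparisons that yielded calls share the control TAC libraries. The 5 calls between the genotypes after TAC became 2 without knockout TAC replicate 1 or 2, and 3 without control TAC replicate 1 or 2. Over all genes the calls in that comparison went from 1145 to 214 and 202 without these knockout TAC libraries. Without these control TAC libraries they went to 348 and 275.

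**Figure D1:**
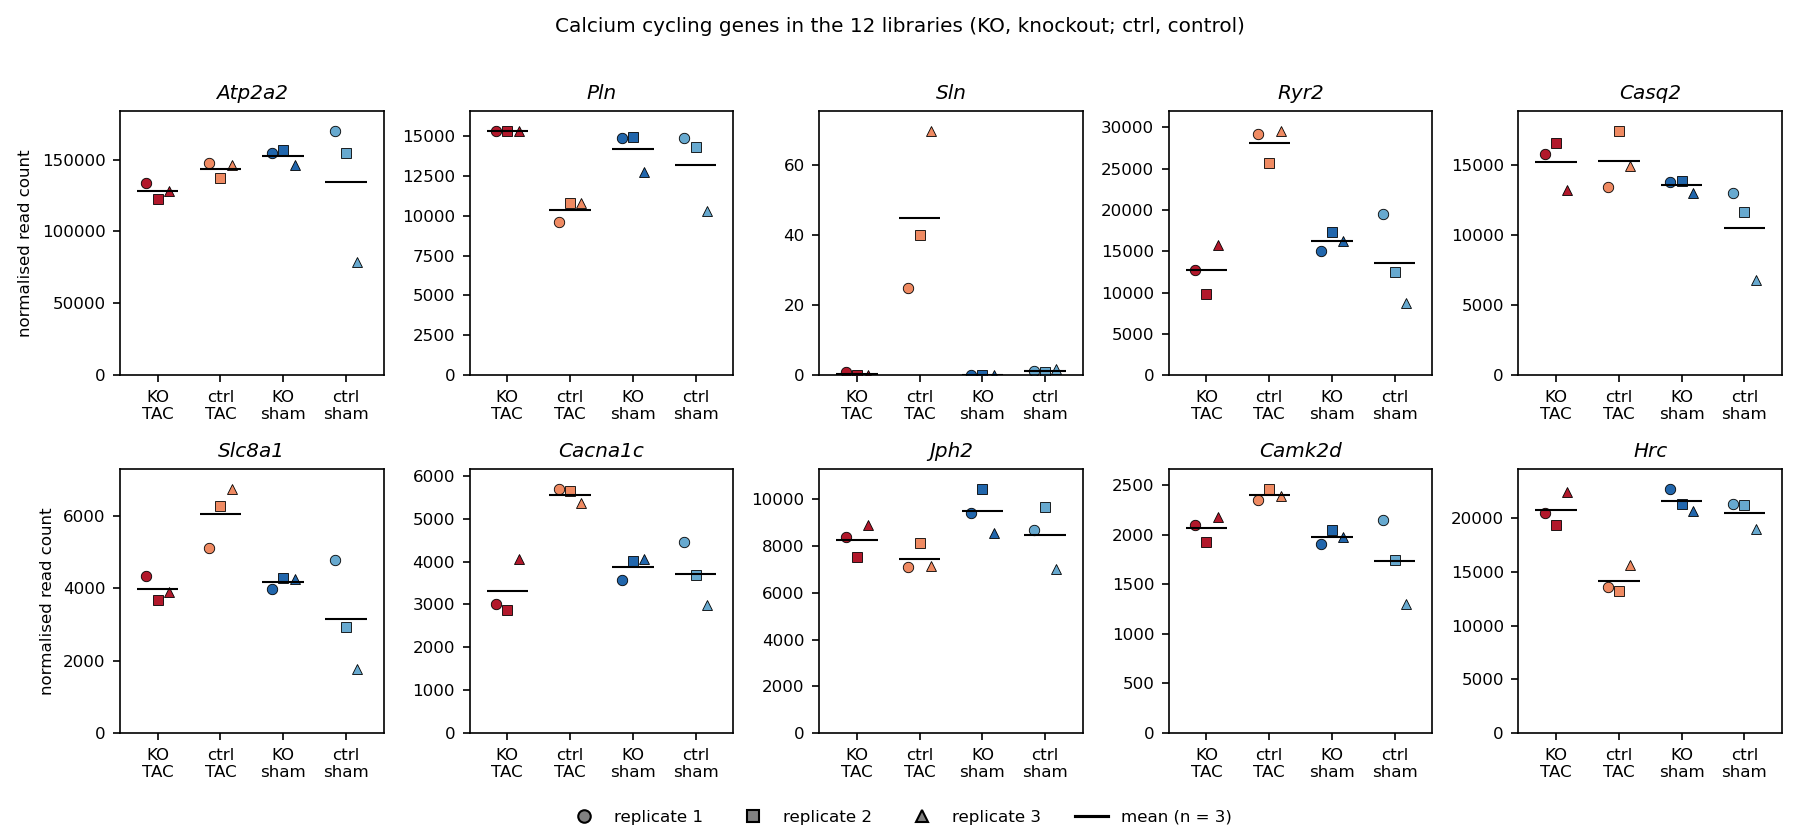
Normalised read counts of the 10 genes in the 12 libraries, with knockout (KO) TAC, control (ctrl) TAC, knockout sham and control sham from left to right; symbols mark replicates and lines the means (n = 3). The 3 control TAC libraries stand above all others for Sln, Ryr2, Slc8a1 and Cacna1c and below all others for Hrc, and control sham replicate 3 (triangle) is low in 6 panels.

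The pump itself did not pass the test in any comparison. Atp2a2, which encodes SERCA2a (chr5:122453513-122502225, minus strand), had 133466, 122391 and 128170 in knockout TAC hearts, against 147648, 137302 and 146427 in control TAC hearts. After sham surgery Atp2a2 had 154612, 156700 and 146561 in knockouts, against 170108, 154411 and 79016 in controls. Knockout TAC libraries lay below all control TAC libraries and below all knockout sham libraries, whereas the control TAC libraries overlapped with the control sham libraries, of which replicate 3 was far below the others. The change after TAC was -0.25 ± 0.20 in knockouts (adjusted p = 0.855) and 0.17 ± 0.20 in controls (adjusted p = 0.583). Without control sham replicate 3 the change in controls was -0.17 (adjusted p = 0.157), so that its sign turned.

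Phospholamban stood higher in knockout than in control hearts after TAC. Pln (chr10:53337667-53345987, plus strand) had 15320, 15325 and 15312 in knockout TAC hearts, against 9598, 10766 and 10773 in control TAC hearts. After sham surgery Pln had 14886, 14934 and 12710 in knockouts, against 14884, 14286 and 10321 in controls. The knockout TAC libraries were nearly equal (15319 ± 6.48, SD, n = 3) and lay above the other 9 libraries. Between knockout and control hearts after TAC the difference was 0.56 ± 0.14 (limma-trend adjusted p = 0.0233), a 1.48-fold higher value. The call was lost without knockout TAC replicate 1 or 2 or control TAC replicate 1 or 2 (adjusted p = 0.0945, 0.0950, 0.106 and 0.0650), with differences of 0.51 to 0.59. In controls the change after TAC was -0.33 ± 0.14 and did not pass (adjusted p = 0.107), since control sham replicate 3 lay among the control TAC libraries. Without that library it was -0.49 (adjusted p = 0.00286). In knockouts it was 0.12 ± 0.14 (adjusted p = 0.915).

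Sarcolipin transcripts were almost confined to control hearts after TAC, at very low abundance. Sln (chr9:53850164-53854560, plus strand) gave 1, 0 and 0 reads in knockout TAC hearts, against 23, 39 and 75 reads in control TAC hearts. After sham surgery Sln gave 0, 0 and 0 reads in knockouts, against 1, 1 and 2 reads in controls. As normalised counts the control TAC libraries had 24.9, 40.2 and 69.9, and no other library exceeded 1.70. Sln reached the minimum of 10 in these 3 libraries alone, so it entered the test through the group in which it was high. Pooled over libraries and corrected for size factors, control TAC hearts had 36.6 times the reads of control sham hearts (95% interval 14.0 to 136, 137 against 4 reads). Knockout TAC hearts had 0.00759 times those of control TAC hearts (95% interval 0.000191 to 0.0430, 1 against 137 reads), where both intervals cover counting error only. With 1 read in knockout TAC hearts and 0 in knockout sham hearts, where 0 reads allow up to 3 over the group or a value of 0.942, no fold could be given in knockouts. On the log2(value + 1) scale the change was -5.08 ± 0.68 between knockout and control hearts after TAC (adjusted p = 0.000926) and 4.25 ± 0.68 between TAC and sham in controls (adjusted p = 0.000884). Because Sln entered the test through its high group, these p-values are given as a description. In bulk tissue, fewer cells of a type and less RNA per cell cannot be told apart.

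Because sarcolipin is an atrial transcript in mouse, atrial markers are given beside it. Of 10 listed, 9 were tested, and between the genotypes after TAC 1 was higher in knockouts (Stard10) and 3 lower (Myl7, Myl4 and Dkk3), against 8.23% of all genes called. In controls after TAC 4 rose (Myl7, Myl4, Nppa and Dkk3) and 2 fell (Stard10 and Sbk2), against 21.6%. In the difference of the TAC effects 2 were lower (Myl7 and Myl4), against 0.309%. Myl7, the atrial regulatory light chain, had 2.90, 2.22 and 0 in knockout TAC hearts, against 115, 95.8 and 212 in control TAC hearts. After sham surgery Myl7 had 1.81 to 18.3 in knockouts, against 5.70 to 25.6 in controls, so control TAC libraries stood above all others for Myl7 as for Sln. Myl4, the atrial essential light chain, had 39.6, 28.8 and 43.6 in knockout TAC hearts, against 174, 159 and 213 in control TAC hearts. Stard10 went the other way, with 277 to 287 in knockout TAC hearts, against 123 to 181 in control TAC hearts. After sham surgery Stard10 had 342 to 422 in knockouts, against 345 to 418 in controls. Sbk2 had 27.0 to 56.7 in knockout TAC hearts, against 19.6 to 78.9 in control TAC hearts. After sham surgery Sbk2 had 119 to 155 in knockouts, against 109 to 152 in controls. The summed level of the 10 atrial markers was 2535 to 3174 in knockout TAC hearts, 3903 to 7206 in control TAC hearts, 2327 to 2654 in knockout sham hearts and 2046 to 2393 in control sham hearts. Nppa alone averaged 1603 in knockout TAC hearts, 3562 in control TAC hearts, 779 in knockout sham hearts and 482 in control sham hearts. The rise of the sum in controls after TAC rests largely on Nppa. The median change of the 9 tested was -0.44 after TAC in controls and 0.12 between the genotypes after TAC. Bmp10, which marks atrial cardiomyocytes, had 0 reads in the control TAC libraries, and no other marker of this list had 0 reads over any group. The part of the atrial markers in the Sln result was not tested. Of 12 skeletal muscle markers 4 were tested and none was called in any comparison. Their sums of 193 to 250 in knockout TAC hearts, 117 to 305 in control TAC hearts, 141 to 185 in knockout sham hearts and 112 to 215 in control sham hearts overlapped.

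The ratio of Pln to Atp2a2, in which the size factor cancels, was highest in knockout TAC hearts apart from control sham replicate 3, and lowest in control TAC hearts. It was 11.5, 12.5 and 11.9 Pln reads per 100 Atp2a2 reads in knockout TAC hearts, against 6.50, 7.84 and 7.36 in control TAC hearts. In sham-operated hearts the ratio was 9.63, 9.53 and 8.67 in knockouts, against 8.75, 9.25 and 13.1 in controls. The groups did not overlap in the TAC comparison of the genotypes, nor between TAC and sham within either genotype, where the ratio was higher after TAC in knockouts and lower after TAC in controls. The mean log2 ratio differed by 0.73 between knockout and control after TAC, by 0.37 between TAC and sham in knockouts and by -0.50 between TAC and sham in controls, each with an exact two-sided permutation p of 0.1, the smallest that 3 against 3 libraries allow. With genotype labels exchanged within each surgery, the difference of the TAC effects, 0.87, had an exact permutation p of 0.04 over 400 arrangements. Such a test is exact for no genotype difference after either surgery, not for equal TAC effects alone. The difference of the TAC effects did not pass after adjustment over the 14 ratio tests (adjusted p = 0.122). Without control sham replicate 3, whose ratio of 13.1 came from a low Atp2a2 value, it was 0.69 (exact permutation p = 0.075). Scaled by the length of the main transcript, which is 2334 bases for Pln and 4486 bases for Atp2a2, the ratio per 100 averaged 23.0 ± 1.00 in knockout TAC hearts, 13.9 ± 1.30 in control TAC hearts, 17.8 ± 1.01 in knockout sham hearts and 19.9 ± 4.53 in control sham hearts (SD, n = 3 each).

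The ratio of Sln to Atp2a2 was 7.23, 0 and 0 Sln reads in 1000000 Atp2a2 reads in knockout TAC hearts, against 168, 293 and 478 in control TAC hearts. In sham-operated hearts this ratio was 0, 0 and 0 in knockouts, against 6.26, 6.15 and 21.5 in controls. Only the control TAC libraries exceeded the range of the sham controls, and by this measure Sln remained far below Pln in each of the 12 libraries. The mean log2 ratio of (value + 1) differed by -4.91 between knockout and control after TAC, by 0.58 between TAC and sham in knockouts, by -1.40 between knockout and control after sham and by 4.08 between TAC and sham in controls. Each had an exact permutation p of 0.1, the smallest possible, and an adjusted p of 0.122 over the 14 ratio tests. In libraries with 0 Sln reads, 5 of the 6 knockout libraries, this ratio is ordered by Atp2a2 alone. The 0.58 within knockouts and its p are therefore not read as a change of Sln. The -1.40 after sham rests on 0 against 4 Sln reads. For the same reason tests pooled over genotypes or surgeries are not used. The difference of the TAC effects was -3.50 and did not pass (exact permutation p = 0.105).

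**Figure D2:**
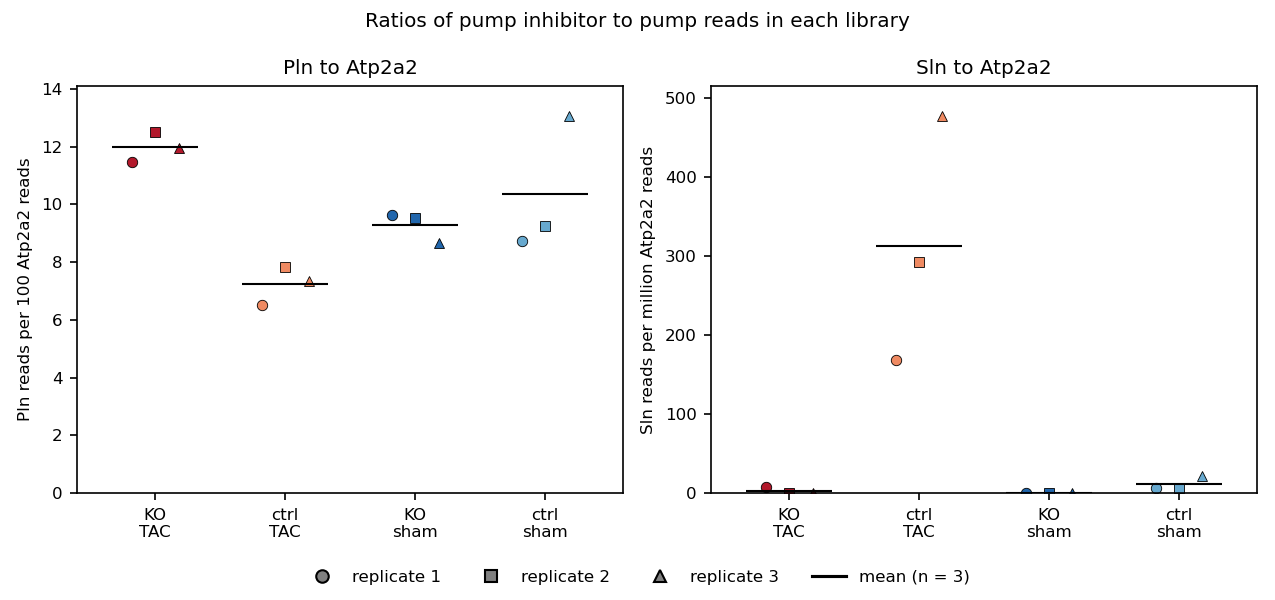
Pln reads per 100 Atp2a2 reads (left) and Sln reads in 1000000 Atp2a2 reads (right) in each library, with knockout (KO) groups left of their control (ctrl) groups; symbols mark replicates and lines the means (n = 3). The Pln ratio is 11.5 to 12.5 in knockout TAC hearts and 6.50 to 7.84 in control TAC hearts, and the Sln ratio exceeds 100 in control TAC hearts only.

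Other micropeptides bind the same pump. Strit1, which encodes DWORF, a peptide that relieves the pump of phospholamban, had 542, 647 and 441 in knockout TAC hearts, against 258, 254 and 331 in control TAC hearts. After sham surgery Strit1 had 714, 477 and 385 in knockouts, against 614, 631 and 605 in controls. Control TAC libraries lay below all others. Strit1 was higher in knockout than in control hearts after TAC by 0.94 ± 0.19 (limma-trend adjusted p = 0.0104) and in controls it fell by 1.14 on the log2 scale after TAC (SE 0.19, adjusted p = 0.00123). The first of these calls was lost without knockout TAC replicate 1 or 2 or control TAC replicate 1 or 2 (adjusted p = 0.0529, 0.0700, 0.0508 and 0.0529). Mrln, whose peptide myoregulin inhibits the pump in mouse skeletal muscle, was near the detection limit, with 9.66, 16.6 and 8.72 in knockout TAC hearts, against 4.33, 0 and 1.86 in control TAC hearts. It was called in both comparisons (2.30 ± 0.61, adjusted p = 0.0291, and -2.44 ± 0.61, adjusted p = 0.0104). Neither call was made without control TAC replicate 2 (adjusted p = 0.121 and 0.0510), nor the first without knockout TAC replicate 1 or 2 (adjusted p = 0.0909 and 0.143). S100a1, a calcium sensor that raises pump and release channel activity, had an adjusted p of 0.0997 between the genotypes after TAC.

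**Figure D3:**
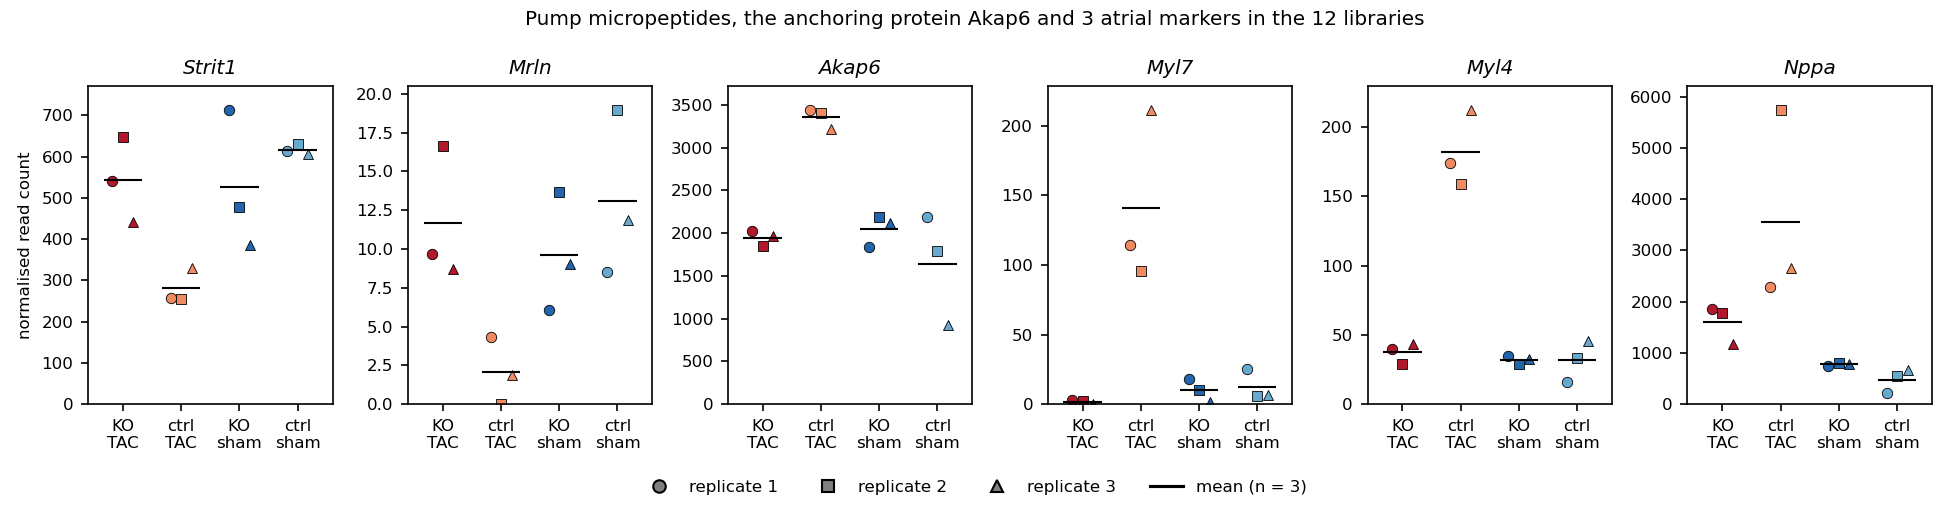
Normalised read counts of the pump micropeptide genes Strit1 and Mrln, of Akap6 and of the atrial markers Myl7, Myl4 and Nppa, with knockout (KO) groups left of their control (ctrl) groups; symbols mark replicates and lines the means (n = 3). The control TAC libraries are the lowest for Strit1 (254 to 331) and the highest for Akap6, Myl7, Myl4 and Nppa. The atrial markers Stard10 and Sbk2, which fell in controls after TAC, are not shown.

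Inside the reticulum, the 2 luminal calcium binders did not move together. Hrc, the histidine-rich calcium-binding protein (chr7:45335290-45338974, plus strand), had 20548, 19379 and 22493 in knockout TAC hearts, against 13615, 13256 and 15682 in control TAC hearts. After sham surgery Hrc had 22777, 21346 and 20712 in knockouts, against 21327, 21233 and 19049 in controls. The 3 control TAC libraries lay below the other 9. Hrc was higher in knockout than in control hearts after TAC by 0.55 ± 0.12 (adjusted p = 0.0120, 1.47-fold) and fell by 0.54 on the log2 scale after TAC in controls (SE 0.12, adjusted p = 0.00589). The first call was lost without knockout TAC replicate 1 or control TAC replicate 1 or 2 (adjusted p = 0.0580, 0.0591 and 0.0624), and the second was made without each library in turn. Casq2, cardiac calsequestrin, the main calcium store protein (chr3:102086415-102146514, plus strand), had 15760, 16569 and 13209 in knockout TAC hearts, against 13385, 17424 and 14936 in control TAC hearts. After sham surgery Casq2 had 13796, 13812 and 12978 in knockouts, against 13009, 11625 and 6790 in controls. Between the genotypes after TAC the Casq2 groups overlapped and the difference was -0.00 ± 0.19 (adjusted p = 0.991). It rose after TAC in controls by 0.59 ± 0.19 (adjusted p = 0.0385), and this call was made without control sham replicate 1 or 2 and without knockout TAC replicate 2 or 3, but not without any of the other 8 libraries (adjusted p = 0.0514 to 0.147). Without control sham replicate 3 the change was 0.30 (adjusted p = 0.0902).

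Hrc and Pln, the members with higher values in knockout than in control hearts after TAC, are both short genes, and their promoters are shown for that shared pattern. The windows are those of RefSeq on GRCm38.p6, 250 bases before to 50 after the start of each gene, on the plus strand, and capitals mark matches to the E-box motif CANNTG, which reads the same on both strands. The Pln window is chr10:53337436-53337735 with 2 matches and the Hrc window is chr7:45335019-45335318 with 1 match.
Pln: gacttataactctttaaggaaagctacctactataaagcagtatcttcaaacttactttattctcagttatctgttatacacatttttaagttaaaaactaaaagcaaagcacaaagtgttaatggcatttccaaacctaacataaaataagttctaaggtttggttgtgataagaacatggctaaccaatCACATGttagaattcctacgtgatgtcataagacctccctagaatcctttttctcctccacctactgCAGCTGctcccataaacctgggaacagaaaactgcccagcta
Hrc: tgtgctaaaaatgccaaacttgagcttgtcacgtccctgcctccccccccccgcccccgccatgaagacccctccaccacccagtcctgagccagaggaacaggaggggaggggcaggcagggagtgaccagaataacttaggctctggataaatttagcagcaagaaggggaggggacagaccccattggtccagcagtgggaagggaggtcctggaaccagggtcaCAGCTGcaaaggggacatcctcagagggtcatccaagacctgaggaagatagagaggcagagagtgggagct
The motif CANNTG occurred in 72.3% of the 32544 windows of the table and in at least 1 window of 7 of the 8 members that matched it. The GATA motif AGATAA, searched on both strands, occurred in 11.2% of windows and in those of Pln and Slc8a1.

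Ryr2, the ryanodine receptor of heart muscle (chr13:11553102-12106945, minus strand), had 12702, 9783 and 15730 in knockout TAC hearts, against 29151, 25651 and 29582 in control TAC hearts. After sham surgery Ryr2 had 15025, 17278 and 16244 in knockouts, against 19484, 12517 and 8766 in controls. The control TAC libraries stood above the other 9 by a wide margin, and the knockout TAC libraries overlapped with both sham groups. Ryr2 was 0.445-fold in knockout relative to control hearts after TAC, a difference of -1.17 ± 0.23 (adjusted p = 0.00903), which missed the threshold without knockout TAC replicate 2 (-0.99, adjusted p = 0.0574). In controls it rose after TAC by 1.12 ± 0.23 (adjusted p = 0.00405), 2.18-fold, and by 0.85 without control sham replicate 3 (adjusted p = 0.0147). In knockouts the change was -0.37 ± 0.23 (adjusted p = 0.798). The difference of the TAC effects was -1.49 ± 0.32 (adjusted p = 0.0603), past the threshold with DESeq2 (adjusted p = 0.00240) and without knockout TAC replicate 3 (adjusted p = 0.0287) or control sham replicate 1 (adjusted p = 0.00217). Jph2, junctophilin, which holds the reticulum against the surface membrane beside the channel (chr2:163336242-163397993, minus strand), had 8391, 7541 and 8906 in knockout TAC hearts, against 7106, 8115 and 7129 in control TAC hearts. After sham surgery Jph2 had 9426, 10460 and 8567 in knockouts, against 8707, 9670 and 7040 in controls. These groups overlapped, and no comparison of Jph2 passed (adjusted p = 0.387 to 0.975).

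At the surface membrane, Cacna1c was called both between the genotypes after TAC and in controls after TAC, and Slc8a1 in controls after TAC. Cacna1c, the pore of the L-type channel (chr6:118587240-119196418, minus strand), had 3010, 2858 and 4051 in knockout TAC hearts, against 5700, 5635 and 5355 in control TAC hearts. After sham surgery Cacna1c had 3573, 4010 and 4055 in knockouts, against 4455, 3681 and 2983 in controls, so control TAC libraries lay above all others. The difference between knockout and control hearts after TAC was -0.77 ± 0.16 (adjusted p = 0.00978), lost without knockout TAC replicate 1 or 2 (adjusted p = 0.0590 and 0.0674). In controls it rose after TAC by 0.60 ± 0.16 (adjusted p = 0.0132), and by 0.46 without control sham replicate 3 (adjusted p = 0.0277), and this call was made without each library in turn. Slc8a1, the sodium-calcium exchanger (chr17:81373105-81738377, minus strand), had 4331, 3669 and 3895 in knockout TAC hearts, against 5102, 6260 and 6749 in control TAC hearts. After sham surgery Slc8a1 had 3978, 4290 and 4245 in knockouts, against 4774, 2941 and 1765 in controls. The control TAC libraries again lay above all others, while the control sham libraries were spread over both sides of the knockout libraries. Slc8a1 rose after TAC in controls by 1.04 ± 0.25 (adjusted p = 0.0103), with 0.68 without control sham replicate 3 (adjusted p = 0.0139). Between the genotypes after TAC it had -0.60 ± 0.25 (adjusted p = 0.149), which passed without control sham replicate 1 or 3 (adjusted p = 0.0302 and 0.0160) and when the 2 TAC groups were fitted alone (adjusted p = 0.0125).

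Camk2d, the calmodulin-dependent kinase that phosphorylates phospholamban and the ryanodine receptor (chr3:126596302-126846326, plus strand), had 2093, 1925 and 2176 in knockout TAC hearts, against 2343, 2463 and 2390 in control TAC hearts. After sham surgery Camk2d had 1904, 2042 and 1971 in knockouts, against 2150, 1745 and 1301 in controls. Control TAC libraries lay above all others by a small margin. Camk2d rose after TAC in controls by 0.50 ± 0.15 (adjusted p = 0.0272). That call was lost without any 1 of the control TAC libraries or without control sham replicate 2 or 3 (adjusted p = 0.0523 to 0.0846), and without the last of these the change was 0.31. Between the genotypes after TAC the difference was -0.22 ± 0.15 (adjusted p = 0.392).

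**Figure D4:**
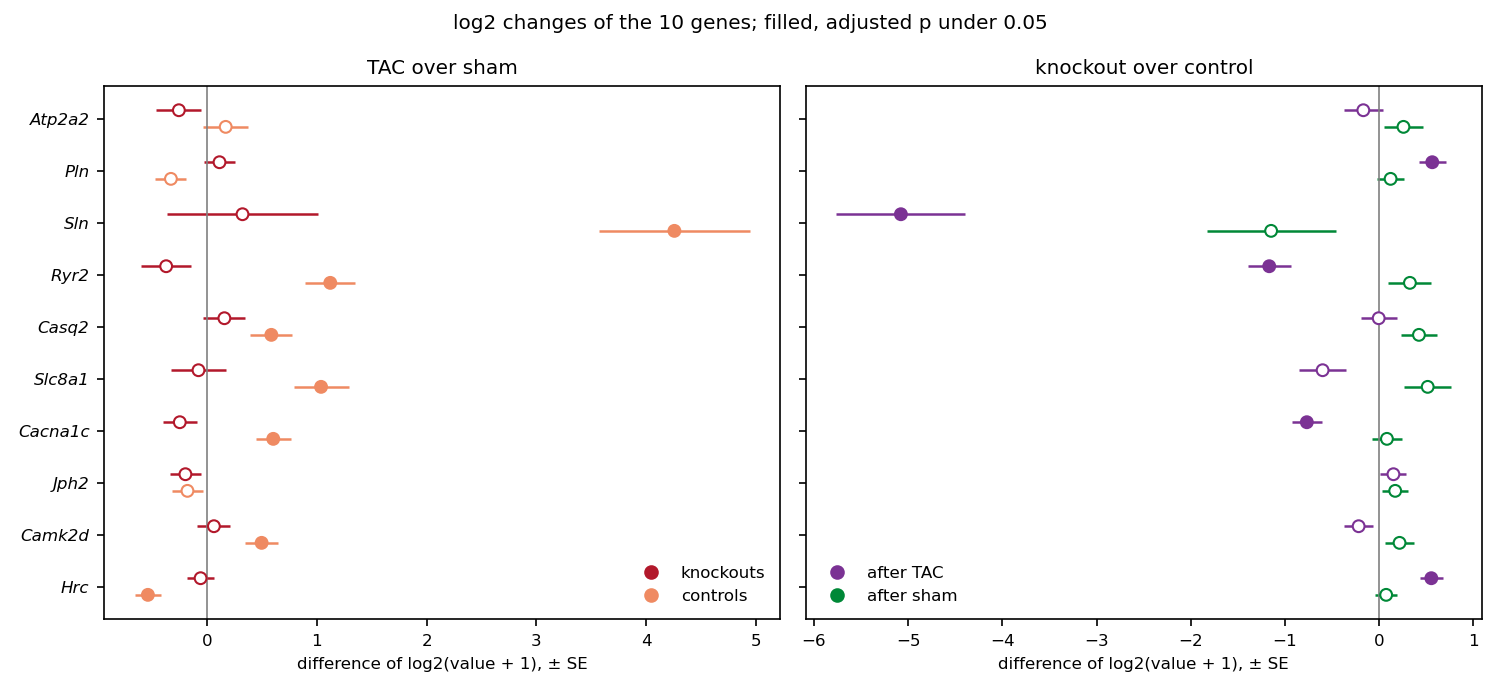
Differences of log2(value + 1) with SE bars for the 10 genes: TAC over sham in knockouts and controls (left), knockout over control after TAC and after sham (right); filled circles have an adjusted p under 0.05. Filled circles are present for TAC over sham in controls (7 genes) and for knockout over control after TAC (5 genes), and no circle is filled for TAC over sham in knockouts or for knockout over control after sham.

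Separation of the groups library by library was counted as well. Knockout and control TAC libraries did not overlap for 8 of the 10 genes, 2 higher and 6 lower in knockouts, against 31.1% of all genes (15.6% higher and 15.5% lower). TAC and sham libraries did not overlap for 2 of 10 in knockouts (Pln higher and Atp2a2 lower after TAC), against 17.2% of all genes (8.31% higher and 8.87% lower), and for 7 of 10 in controls, against 35.5% (17.7% in each direction). Sln is among the 8 and the 7, but it passed the filter on low values through the control TAC libraries alone. Its separation from those libraries therefore follows from the filter. Knockout and control sham libraries did not overlap for Sln alone, lower in knockouts on 0 against 4 reads, against 9.62% (4.94% higher and 4.68% lower). The median change of the 10 genes was -0.19 between the genotypes after TAC, -0.07 after TAC in knockouts, 0.19 between the genotypes after sham and 0.54 after TAC in controls, where the medians over all genes were 0.01, -0.01, 0.03 and 0.01. In knockouts no member had an unadjusted p under 0.05 between TAC and sham, and edgeR and DESeq2 called 0 as well. Between the genotypes after sham 1 member had one, Casq2 (adjusted p = 0.934 with limma-trend), and edgeR and DESeq2 called 0. In the difference of the TAC effects 6 members had one. There edgeR called 0 and DESeq2 called 3 (Ryr2, Cacna1c and Hrc), and limma-trend called 4 without control sham replicate 1, 2 without knockout TAC replicate 3 and 1 without control sham replicate 3. Over all 13916 genes 929, 604 and 2292 had an unadjusted p under 0.05 in limma-trend in these comparisons, in the order given. In the difference edgeR called 40 of all genes and DESeq2 called 480. Without the same libraries in turn limma-trend called 755, 283 and 102 of all genes.

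The direction of change followed exon length over the whole table, which bears on the long members. Across 13906 genes the change after TAC in controls had a Spearman rho of 0.39 with exon length, with a median of -0.26 for 4198 genes under 3 kb and of 0.58 for 369 genes over 15 kb. Between knockout and control hearts after TAC rho was -0.44, with medians of 0.24 and -0.48, while between TAC and sham in knockouts it was 0.01 and between the genotypes after sham 0.09. With GC content rho was -0.45 after TAC in controls and -0.36 after TAC in knockouts. Between the genotypes the rho with GC content was -0.25 after sham and 0.18 after TAC. Ryr2, Camk2d, Cacna1c and Slc8a1 have 28790, 22493, 21191 and 18807 bases of annotated exons, and Pln, Casq2, Hrc and Sln have 2759, 2736, 2566 and 1318. After the trend with length and GC content was removed from each library, 2 of the 5 genes stayed called between the genotypes after TAC, Sln (-5.23, adjusted p = 0.000850) and Pln (0.55, adjusted p = 0.0112). Over all genes 693 of 13906 were then called. Sln entered the test through its high group, so its p-values are a description here as well, and apart from it Pln alone stayed called. Ryr2 was then at -0.53 (adjusted p = 0.0873), Cacna1c at -0.22 (adjusted p = 0.369) and Hrc at 0.42 (adjusted p = 0.0548). In controls after TAC, Sln (4.30, adjusted p = 0.00108) and Pln (-0.56, adjusted p = 0.00403) were called and the other 6 calls were lost, against 1503 of 13906 genes called. Apart from Sln, none of the calls made in controls before trend removal stayed. Casq2 was then at 0.53 (adjusted p = 0.0610), near its 0.59 before, with Ryr2 at 0.47 (adjusted p = 0.0944), Slc8a1 at 0.43 (adjusted p = 0.202) and Camk2d at -0.14 (adjusted p = 0.513). The exons of Slc8a1, Cacna1c and Camk2d together are several times as long as their main transcript. With the main transcript's length 4 genes were called between the genotypes after TAC (Pln, Sln, Cacna1c and Hrc) and 5 in controls after TAC (Pln, Sln, Slc8a1, Cacna1c and Hrc). Over all genes 540 and 1287 of 13906 were then called. What the trends with length and GC content come from was not tested.

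**Figure D5:**
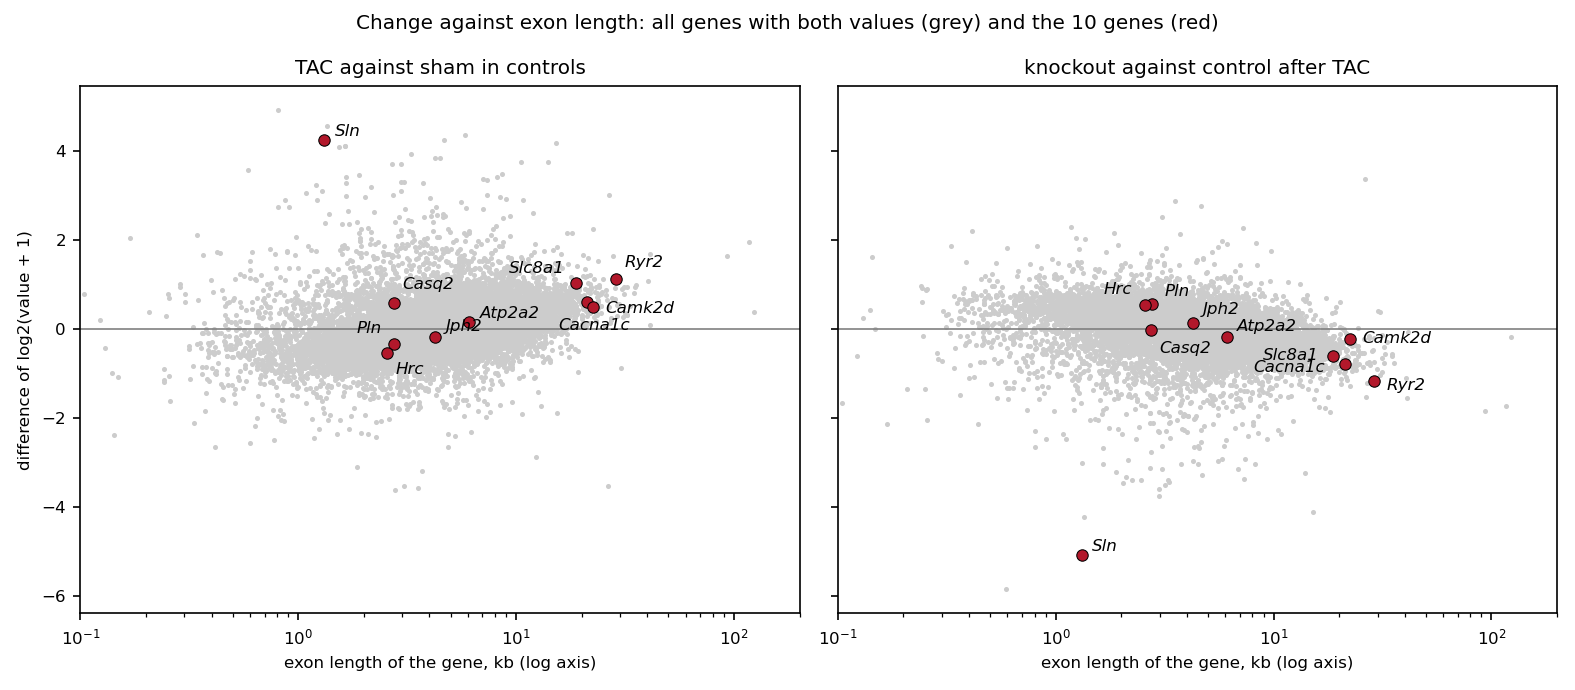
Difference of log2(value + 1) against exon length in kb on a log axis, for all genes with both values (grey) and the 10 genes (red): TAC over sham in controls (left) and knockout over control after TAC (right). The 4 longest members, of 18.8 to 28.8 kb, lie above 0 on the left and below 0 on the right with the grey cloud, and Sln lies outside the cloud of genes of its length in both.

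Per kilobase of main transcript, the levels of the 10 genes over the 12 libraries spanned more than 3 orders of magnitude. Atp2a2 was highest, at 31149 ± 5192 per kb, followed by Hrc at 7999 ± 1369, Pln at 5681 ± 972 and Casq2 at 5324 ± 1063 (SD over 12 libraries). These SDs include the differences between groups: in control TAC hearts alone Casq2 had 5966 ± 797, Hrc 5883 ± 543 and Pln 4447 ± 290 per kb (SD, n = 3), with Casq2 and Hrc overlapping and Pln below both in all 3 libraries. Jph2 followed at 1999.9 ± 261, Slc8a1 at 1363 ± 420, Ryr2 at 1050 ± 419, Cacna1c at 625 ± 152, Camk2d at 370 ± 57.1 and Sln at 8.83, with 0 to 53.1 over the libraries. The order of neighbours depends on the length used as well: per kb of all exons Casq2 stood above Pln (4974 and 4806) and Ryr2 above Slc8a1 (613 and 230).

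Around the group means, the deviations of log2(value + 1) of pairs of members ranged widely in correlation. They correlated most for Slc8a1 and Camk2d (Pearson r = 0.95), Ryr2 and Camk2d (r = 0.92), Atp2a2 and Camk2d (r = 0.91) and Ryr2 and Cacna1c (r = 0.91), over 12 libraries that share control sham replicate 3 as an extreme. Hrc had r of 0.21 (with Casq2) to 0.62 (with Ryr2) to the members other than Sln, Casq2 and Cacna1c had r = 0.37, and Sln had r of -0.38 to 0.24 to the other 9. Over all 12 libraries the genes with a pattern most like Sln were Comp (Pearson r = 0.96), Thbs4 (r = 0.96), Tnmd (r = 0.95), Adamts2 (r = 0.94) and Ltbp2 (r = 0.94), secreted or matrix-associated proteins except for the membrane protein of Tnmd. Comp, a cartilage matrix protein, had 22.2, 43.3 and 38.2 in knockout TAC hearts, against 376, 546 and 459 in control TAC hearts. Among the genes most like Atp2a2 were Ank (r = 0.98), Rap1gap2 (r = 0.97), Pank1 (r = 0.96) and Plekhb2 (r = 0.96). Ank had 1536 in control sham replicate 3 and at least 2461 in the other 11 libraries. Tnmd had 21.6 to 24.2 in control TAC hearts and at most 1.11 in the other libraries. Like Sln it passed the filter through the control TAC libraries alone, so the likeness of Tnmd and Sln follows in part from the filter. These correlations are descriptions over libraries that share the group structure and control sham replicate 3.

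Among 66 further genes of the pathway, 64 had an ID and 59 were tested. Between the genotypes after TAC 2 were higher in knockouts (Strit1 and Mrln) and 2 lower, against 8.23% of all genes called. The lower ones were Akap6, which anchors protein kinase A near the release channel (-0.79 ± 0.22, adjusted p = 0.0416), and Itpr1, an inositol trisphosphate receptor (-0.65 ± 0.18, adjusted p = 0.0373), whose groups overlapped. After TAC in controls 7 rose and 5 fell, against 21.6% of all genes called, with a median of 0.00 over the 59. Those that rose were Akap6 (1.13 ± 0.22, adjusted p = 0.00336), the calcium channel subunit gene Cacna2d1 (1.00 ± 0.31, adjusted p = 0.0334), the plasma membrane pump Atp2b1 (0.79 ± 0.18, adjusted p = 0.00766), Asph, Trpc1, Srl and Calu. Without control sham replicate 3 the changes were 0.76 for Akap6, 0.52 for Cacna2d1 and 0.56 for Atp2b1, each still called, while Calu and Atp2a3 were not (adjusted p = 0.0923 and 0.0995). Those that fell were Strit1, Mrln, Camk2b, Atp2a3 and Orai1, a channel of store-operated entry. None of the 59 was called between TAC and sham in knockouts, between the genotypes after sham or in the difference of the TAC effects. In these 3 comparisons 4, 7 and 14 of them had an unadjusted p under 0.05 in limma-trend, edgeR called 0, and DESeq2 called 0, 0 and 2. Over all 13916 genes 929, 604 and 2292 had such a p, edgeR called 1, 0 and 40, and DESeq2 called 23, 1 and 480.

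By list, beside 8.23% of all genes called between the genotypes after TAC and 21.6% in controls after TAC, of 11 pump regulators tested 2 were higher and 0 lower between the genotypes after TAC, and 0 rose and 2 fell after TAC in controls. Of 15 release channel partners 0 were higher and 1 lower between the genotypes, and 3 rose and 0 fell in controls. Of 13 genes of surface calcium channels and their dyad 0 were called between the genotypes and 2 rose in controls. Of 9 other calcium pumps and exchangers 0 were called between the genotypes, and 1 rose and 1 fell in controls. Of 11 genes of calmodulin kinases and store entry 0 were higher and 1 lower between the genotypes, and 1 rose and 2 fell in controls. Trdn, triadin, which links calsequestrin to the release channel, had 3980, 4053 and 3296 in knockout TAC hearts, against 3087, 3370 and 3414 in control TAC hearts, and did not pass in any comparison (adjusted p = 0.506 to 0.971). Fkbp1b, the channel-stabilising immunophilin, had at most 13.9 in any library and did not pass either. Without control sham replicate 3 the pathway counts became 4 higher and 6 lower between the genotypes after TAC, and 8 up and 7 down after TAC in controls. Over all genes the same counts were 1066 higher and 1077 lower, and 1197 up and 1205 down. The 4 pathway calls between the genotypes fell to 0 without knockout TAC replicate 1 or 2 or control TAC replicate 2, to 2 without control TAC replicate 1 or any 1 of the knockout sham libraries, and became 7 without knockout TAC replicate 3. Over all genes these calls went from 1145 to 214, 202 and 275 where those of the pathway fell to 0. They went to 348 without control TAC replicate 1 and to 1945 without knockout TAC replicate 3. Without any 1 of the knockout sham libraries they were 796 to 910. The 12 pathway calls in controls became 5 without control TAC replicate 2, where those over all genes went from 3006 to 1549. The trend with length and GC content, once removed, left 2 higher and 0 lower between the genotypes, and 2 up and 4 down in controls. Over all 13906 genes 444 higher and 249 lower were then left, and 630 up and 873 down.

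Marker lists of cell types were counted beside 8.23% of all genes called between the genotypes after TAC and 21.6% in controls after TAC. Of 10 ventricular cardiomyocyte markers 5 were higher and 1 lower in knockout than in control hearts after TAC, and 3 rose and 4 fell after TAC in controls. Their sum was 1155992 to 1251219 in knockout TAC hearts, 1002345 to 1093283 in control TAC hearts, 1229519 to 1291310 in knockout sham hearts and 1100047 to 1127573 in control sham hearts. Of 6 fibroblast markers 0 were higher and 3 lower in knockouts after TAC, and 1 rose in controls after TAC, with sums of 7214 to 9663 in knockout TAC hearts, 11442 to 12095 in control TAC hearts, 8249 to 8985 in knockout sham hearts and 8736 to 10300 in control sham hearts. Of 6 mesothelial markers 2 were higher in knockouts after TAC, and 5 fell in controls after TAC, with sums of 196 to 395 in knockout TAC hearts, 57.8 to 193 in control TAC hearts, 197 to 381 in knockout sham hearts and 209 to 511 in control sham hearts. Of 6 smooth muscle and pericyte markers 0 were called between the genotypes after TAC and 1 fell in controls after TAC. None of the 6 endothelial and 6 macrophage markers was called in either comparison. The part of these shifts in the results on the 10 genes was not tested.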

How the data were processed

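The deposited table holds signal values, reads per gene divided by one size factor per library, a unit read from the values themselves: all (100%) were whole multiples of one step per column within 0.01 read, and the factors equal median-of-ratios factors of the recovered reads. Per the labels, RNA was extracted with TRIzol and made into stranded poly(A) libraries. Per the submitters' processing notes, STAR, featureCounts and SAMtools were used with GRCm38.p6; the sources used here give no versions and no annotation. Of 56350 IDs, 55480 matched GENCODE M21.

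The planned main test, limma-trend (limma 3.58.1, R 4.3.3, robust), used log2(value + 1) in all 12 libraries and a mean for each of the 4 groups. It covered the 13916 genes that reached 10 in 3 or more libraries, with Benjamini-Hochberg adjustment per contrast at 0.05. All 10 members passed this filter, Sln only through the control TAC libraries. Both ratios were compared by two-sided exact permutation tests, 14 in all. For the difference of the TAC effects, genotype labels were exchanged within each surgery. Intervals of pooled Sln reads are exact 95% binomial intervals and cover counting error only; 0 reads were read as up to 3.

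The members and lists were chosen with earlier results of these data known. Named were all members, Strit1, Mrln, Trdn, Fkbp1b and S100a1, up to 4 called genes with the smallest p per list and contrast, markers by list, and the 5 genes most correlated with Sln and with Atp2a2, of which 1 is not reported here. The Comp and Ank values, the fibroblast and ventricular sums and the promoters shown were chosen after values were seen. Alternatives were edgeR 4.0.16, DESeq2 1.42.0 on recovered reads (no deposited count table was used), TMM scaling, pseudocounts of 0.5 and 5, other filters, the compared groups alone, the replicate number as a block, removal of the length and GC trend by loess (span 0.5) and leaving out each library. The variant of that trend with main transcript length was added after seeing the data. Permutation tests used pandas 2.3.3 and numpy 2.4.6 (Python 3.11.15). The intervals of pooled Sln reads used scipy 1.17.1, and matplotlib 3.10.9 drew the figures.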

Additional observations from a re-analysis of the deposited data

Results flagged for a closer look

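The log2 ratio of Pln to Atp2a2 changed in opposite directions after TAC in the 2 genotypes, by 0.37 (higher) in knockouts and by -0.50 (lower) in controls, and a difference between the genotypes in the effect of TAC is what brought it here. The difference of these effects was 0.87, with an exact permutation p of 0.04 and an adjusted p of 0.122 over 14 tests. It was 0.69 (exact permutation p = 0.075) without control sham replicate 3 and 0.82 (exact permutation p = 0.05) without knockout sham replicate 3.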

How the results depend on the processing

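The members called between the genotypes after TAC numbered 5, with 2 to 6 without each library in turn. Once the length and GC trend was taken out by exon and main transcript length, they numbered 2 and 4. In controls after TAC they numbered 7, with 4 when the 2 groups were fitted alone. After trend removal by exon and main transcript length they numbered 2 and 5 in controls. Sln, which entered the test through its high group, is among the members called after each of these trend removals. For the difference of the TAC effects, 0 became 3 with DESeq2, 1 with a pseudocount of 5 and 2 with no filter, and 0 to 4 without each library. Pathway calls after TAC between the genotypes numbered 4, with 7 for the groups alone, 2 and 1 after trend removal by exon and main transcript length, and 0 to 10 without each library. In controls they numbered 12, with 3 for the groups alone, 6 and 2 after trend removal, and 5 to 15 without each library. For the difference, 0 became 2 with DESeq2, 1 with no filter, and 0 to 6 without each library. Over all genes tested, calls between the genotypes after TAC numbered 1145, with 1430 for the groups alone and 202 to 2143 without each library. Trend removal left 693 and 540. In controls they numbered 3006, with 1433 for the groups alone and 1549 to 3656 without each library. Trend removal left 1503 and 1287. For the difference they numbered 43, and 480 with DESeq2, 65 with a pseudocount of 5 and 124 with no filter. Without each library they ran from 8 to 755.

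The difference of TAC effects of the Pln to Atp2a2 ratio was 0.78 and 0.73 after trend removal by exon and main transcript length (exact permutation p = 0.05 each) and 0.87 with the replicate block, where 3 numbers allow no p under 0.25; without each library it was 0.69 to 0.98. The ratio's genotype difference after sham ran from -0.25 to 0.043, its surgery difference within genotypes from -0.12 to 0.025 and its genotype difference within surgeries from 0.24 to 0.39 without each library.

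Signs also turned for changes that passed no test, apart from Camk2d in controls. After trend removal by exon or main transcript length, Atp2a2 in controls was -0.038 by main transcript, Jph2 in controls 0.19 and 0.12, Camk2d in controls -0.14 by exons, Pln in knockouts -0.053 and -0.060, Jph2 in knockouts 0.017 by main transcript, Camk2d between the genotypes after TAC 0.32 and 0.031, and Camk2d in the difference 0.22 by exons. Casq2 between the genotypes after TAC was 0.00059 with edgeR and 0.0016 with TMM, and Jph2 in the difference 0.0018 with edgeR. Without each library, Atp2a2 in controls ran from -0.17 to 0.38, Casq2 between the genotypes after TAC from -0.095 to 0.096, Jph2 in the difference from -0.12 to 0.11, and after sham Atp2a2 from -0.087 to 0.47, Pln from -0.045 to 0.22 and Cacna1c from -0.064 to 0.22. The cause was not tested.

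Same-numbered libraries correlated by -0.07 to 0.25, over 0.1 in 3 of 18 pairs, and a library correlated best with its own number in 16 of 36 comparisons, so the numbers were not taken to pair samples. With the replicate block the number of members called was the same as without it in each comparison, for example 5 between the genotypes after TAC and 7 in controls after TAC. The Sln ratio has no value with a pseudocount of 0, and Sln none under a minimum of 50. Sln, Mrln and Fkbp1b had few reads, which limits their precision.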
